A study of Mus musculus with 6 samples.

Results

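The genes described here are 10 genes of the granulocyte and monocyte programme, taken by their symbols from the 31253 features that the files list: the primary granule proteins Elane, Mpo, Prtn3 and Ctsg, the progenitor marker Ms4a3 and the protease inhibitor Cst7, and the regulators Cebpa, Cebpb, Cebpe and Gfi1. They were followed in single-cell RNA sequencing of bone marrow cells from mouse samples of the wild type (WT, 3 samples) and of a Txnip knock-out (Txnip-KO, 3 samples). The marrow cells were flushed out, enriched and then isolated on a cell sorter, and the labels name neither the sorted population nor the mouse strain, age or knock-out allele. Libraries were made with 10x Genomics 3' chemistry, which tags each captured RNA molecule with a unique molecular identifier (UMI). Txnip encodes a protein of the arrestin family that binds thioredoxin and restrains glucose uptake, and the series compares marrow with and without it. Whether each sample is a separate animal is not stated, and every p-value therefore rests on a spread between samples that may be partly technical.

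Granulocyte-monocyte progenitors (GMPs) of the bone marrow make the proteins of the primary, or azurophil, granules before they mature into neutrophils and monocytes. These proteins are the serine proteases neutrophil elastase (Elane), proteinase 3 (Prtn3) and cathepsin G (Ctsg), which digest microbes and matrix, and myeloperoxidase (Mpo), which makes hypochlorous acid from hydrogen peroxide. Their messenger RNAs fall again as the cell matures. Cebpa drives entry into the granulocyte-monocyte lineage, Cebpe drives the later, secondary granule stage, Cebpb acts in emergency granulopoiesis and in monocytes, and Gfi1 is a repressor that favours granulocytes over monocytes.

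The genes lie on 7 chromosomes of mouse build GRCm38, in the GENCODE M21 annotation. Elane (chr10:79886247-79888215) and Prtn3 (chr10:79874476-79883174) are neighbours on the plus strand, with 3072 bases between them. Mpo is at chr11:87793581-87804413 on the plus strand, and Ctsg at chr14:56099881-56102574 on the minus strand. Ms4a3 is at chr19:11629496-11640851 and Gfi1 at chr5:107716657-107726036, both on the minus strand. Cst7 (chr2:150570415-150578944) and Cebpb (chr2:167688915-167690418) share a chromosome and the plus strand. Cebpa is at chr7:35119293-35121928 on the plus strand and Cebpe at chr14:54710360-54712174 on the minus strand. How the counting treated strand is not given in these sources, and whether reads of either neighbour were counted to the other was not tested.

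The promoters of the 4 primary granule genes are shown because all 4 were lower in GMP-like cells of Txnip-KO. In some other cells they were lower together as well, and in others Prtn3 was higher while Mpo and Ctsg were lower. Each runs 5' to 3' on the gene's own strand, from 250 bases before to 50 bases after the RefSeq start (GRCm38.p6): Elane chr10:79886062-79886361, Prtn3 chr10:79879417-79879716, Mpo chr11:87793534-87793833 and Ctsg chr14:56102525-56102824. Capitals mark AGGAAGT, a core bound by PU.1 and other ETS factors.
Elane: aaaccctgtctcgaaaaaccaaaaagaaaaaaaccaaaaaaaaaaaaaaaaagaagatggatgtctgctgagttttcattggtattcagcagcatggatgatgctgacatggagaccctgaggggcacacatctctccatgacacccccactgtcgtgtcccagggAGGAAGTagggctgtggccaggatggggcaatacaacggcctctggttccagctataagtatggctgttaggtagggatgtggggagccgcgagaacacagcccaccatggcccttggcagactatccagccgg
Prtn3: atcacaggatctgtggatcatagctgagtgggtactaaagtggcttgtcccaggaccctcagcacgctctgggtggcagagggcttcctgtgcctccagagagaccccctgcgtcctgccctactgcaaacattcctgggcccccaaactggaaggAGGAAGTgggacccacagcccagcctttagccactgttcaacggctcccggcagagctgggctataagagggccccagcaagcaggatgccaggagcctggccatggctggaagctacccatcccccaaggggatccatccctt
Mpo: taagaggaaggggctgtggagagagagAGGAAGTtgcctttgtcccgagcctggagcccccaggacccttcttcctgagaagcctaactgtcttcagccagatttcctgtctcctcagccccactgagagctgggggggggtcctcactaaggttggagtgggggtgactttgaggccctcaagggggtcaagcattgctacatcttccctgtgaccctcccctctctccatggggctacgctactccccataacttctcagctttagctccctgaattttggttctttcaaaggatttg
Ctsg: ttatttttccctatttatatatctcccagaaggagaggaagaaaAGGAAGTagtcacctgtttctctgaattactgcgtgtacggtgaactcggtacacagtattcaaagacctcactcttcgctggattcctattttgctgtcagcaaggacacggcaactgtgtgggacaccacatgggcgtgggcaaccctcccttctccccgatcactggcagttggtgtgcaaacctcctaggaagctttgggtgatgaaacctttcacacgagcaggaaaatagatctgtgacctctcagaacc

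Each of these promoters holds AGGAAGT once, on the strand of the gene. Its first base lies 84 bases before the start in Elane, 94 in Prtn3, 223 in Mpo and 206 in Ctsg.

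Promoters were found for 9 of the 10 genes. Searched on both strands, AGGAAGT was in 5 of them (the 4 above and Cst7) and in 9.35% of all 32851 RefSeq promoters of the same length. The C/EBP motif TTNNGNAA was in those of Ms4a3, Cst7 and Gfi1 and in 40.7% of all promoters. The RUNX motif TGTGGTT and the Gfi1 motif AATCAC were found in 0 of the 9, and in 5.27% and 10.4% of all promoters. No motif overlapped another in the printed promoters. The motifs were chosen after the sequences were seen, and a match describes letters, not binding.

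The 6 samples held 61368478 to 80876483 UMIs each, and 41513 of 48277 barcodes were kept as single cells (6023 to 7827 per sample). Any pair of samples shared 9 to 23 barcodes. Median UMIs per kept cell were 8918, 9176.5 and 8934 in WT and 8187, 7834 and 6932 in Txnip-KO. Txnip itself, the check of the labels, was at 311, 215 and 285 CPM, UMIs scaled to the same total in every sample, in WT replicates 1, 2 and 3 and at 10.0, 9.5 and 0.450 CPM in Txnip-KO replicates 1, 2 and 3. Cells were clustered without the 10 genes and without Txnip, which gave 30 clusters, and 16 classes had at least 20 cells in every sample. Of these, 11 were named from markers ("X-like") and 5 stayed clusters with a number. Neutrophil-like cells were few, with 30, 42 and 25 cells in WT and 274, 21 and 110 in Txnip-KO.

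GMP-like cells are cluster 3, with 2642 cells (380, 414 and 304 in WT, 446, 649 and 449 in Txnip-KO). They were named from a GMP list without any of the 10 genes, of which 3 of 12 markers passed the naming fold. The list is not particular to this class: in WT it summed to 592 to 704 CPM here. It was higher in neutrophil-like (3209 to 3415), basophil or mast-like (1057 to 1144) and cluster 9 cells (1004 to 1120). In plasmacytoid dendritic cell-like cells (594 to 634) it overlapped, and in the remaining classes it was lower. The share of markers asked for was lowered to 25% after the data were seen, because the 50% of an earlier analysis of these data left the cluster unnamed. Its leading genes, ranked by fold over the other cells, began with Elane, Mpo, Ctsg and Prtn3, although none of them was used to build or name it. Of the 12 neutrophil markers 11 were detected in these cells and Ly6g was at 0. The neutrophil list summed to 44.3 to 52.7 CPM in WT and 53.9 to 137 in Txnip-KO. Levels of genes below are sums of UMIs over the cells of a class in a sample, as CPM scaled with TMM. Summed marker lists and the likeness of patterns use CPM of all UMIs of the class in the sample, without TMM.

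In WT samples the granule protein genes were highest in GMP-like cells, and Ms4a3, Cst7 and the Cebp genes were highest in other classes. Elane was at 551 CPM ± 124 in GMP-like cells (SD, n = 3), above every other class in all 3 samples. The next classes were cluster 12 (led by S-phase and histone genes) with 170 ± 55.8 and cluster 10 (led by mitosis genes) with 106 ± 18.6, whose ranges overlapped each other. Mpo stood at 3168 ± 209 CPM in GMP-like cells, 1501 in cluster 12, 1176 in cluster 10 and 573 in basophil or mast-like cells, and these ranges did not overlap. Prtn3 was at 1846 ± 201 CPM in GMP-like cells, at 910 and 851 in clusters 12 and 10, which overlapped, and at 447 in cells like haematopoietic stem cells (HSC-like). Ctsg was at 1929 ± 167 CPM in GMP-like cells and at 1476 in basophil or mast-like cells, whose own granules also hold serine proteases.

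Ms4a3, a membrane protein of granulocyte-monocyte progenitors and basophils, was highest in WT basophil or mast-like cells (212 CPM ± 67.4), ahead of GMP-like cells (80.3 ± 28.1). Cst7 encodes cystatin F, an inhibitor of the cathepsins that activate serine proteases, and was highest in cluster 22 (led by Cd3 and NK genes, 195 CPM) and NK-like cells (177), which overlapped. Cebpa reached 501 CPM ± 28.3 in basophil or mast-like cells and 91.7 ± 7.0 in GMP-like cells. Cebpb was highest in cluster 9, led by Fn1, Cd74, S100a4 and Lyz2 (286 CPM ± 42.8). Cebpe stood at 597 CPM ± 172 in neutrophil-like cells and at 18.6 ± 8.39 in GMP-like cells, the class with the next highest mean. Gfi1 had no clear first place: neutrophil-like cells (36.9 CPM), HSC-like cells (22.8), innate lymphoid-like cells (19.2) and GMP-like cells (18.1) followed each other with overlapping ranges.

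**Figure D1:**
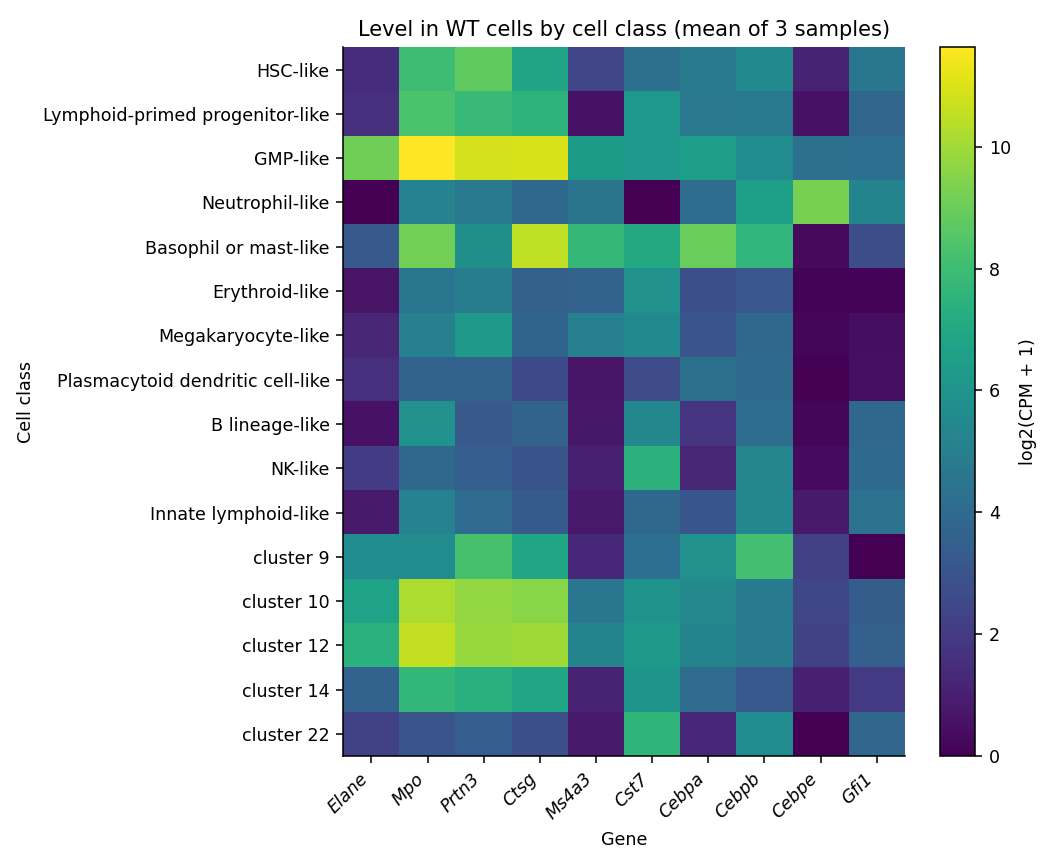
Mean level of the 10 genes in WT cells by cell class (colour: log2(CPM + 1), mean of 3 samples; rows: classes; columns: genes). Elane, Mpo, Prtn3 and Ctsg are brightest in GMP-like cells, Cebpe in neutrophil-like cells and Cst7 in NK-like cells and cluster 22.

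GMP-like cells of Txnip-KO samples held less RNA of 9 of the 10 genes. The 4 granule protein genes, Ms4a3, Cst7, Cebpa, Cebpb and Cebpe fell, and Gfi1 did not pass the test. The median change over the 10 genes was -0.88 on the log2 scale, against 0.02 over all 10989 genes tested in these cells. In the same comparison 21.0% of all genes tested were lower, 19.9% were higher and 40.9% changed in either direction. The WT and Txnip-KO samples did not overlap for 7 of the 10 genes, and 51.1% of all genes tested were separated in this way. Scaling by total UMIs instead of TMM moved the median of all genes by 0.19 and took the share of calls that were higher from 48.6% to 75.7%. On that scale 7 of the 10 genes were lower, and Cebpa (-0.18, adjusted p = 0.216) and Cebpb (-0.37, adjusted p = 0.062) did not pass.

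Elane fell most among the granule protein genes. Its levels were 462, 692 and 497 CPM in WT GMP-like cells and 135, 116 and 160.5 CPM in Txnip-KO. Every Txnip-KO sample lay below every WT sample, and the mean dropped 4.02-fold (log2 change -2.01, SE 0.14, adjusted p = 3.3e-07).

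Mpo and Ctsg fell by less than Elane. Mpo stood at 2931, 3323 and 3251 CPM in WT and at 1399, 1743 and 1840.4 in Txnip-KO, a change of -0.93 (SE 0.09, adjusted p = 7.2e-06). Ctsg stood at 1749, 1957 and 2079.8 CPM in WT and at 922, 1129 and 1184 in Txnip-KO, a change of -0.84 (SE 0.09, adjusted p = 2.0e-05). For both genes the highest Txnip-KO sample was below the lowest WT sample. The ratio of Ctsg UMIs to Mpo UMIs stayed between 0.589 and 0.640 in WT and between 0.643 and 0.659 in Txnip-KO.

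Prtn3 fell least of the granule protein genes. It was at 1621, 2008 and 1909 CPM in WT and 1192, 1283 and 1414 in Txnip-KO, with no overlap and a change of -0.51 (SE 0.09, adjusted p = 0.00038). Per UMI of Mpo in the same cells there were 0.553, 0.604 and 0.587 UMIs of Prtn3 in WT and 0.852, 0.736 and 0.768 in Txnip-KO. Per UMI of Prtn3 there were 0.285, 0.345 and 0.260 UMIs of Elane in WT and 0.113, 0.0907 and 0.113 in Txnip-KO. The granule genes thus did not keep their WT proportions to each other. These ratios compare samples and not the abundance of different transcripts.

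Ms4a3 and Cst7 also fell in GMP-like cells. Ms4a3 was at 64.7, 113 and 63.4 CPM in WT and 33.1, 28.4 and 20.4 in Txnip-KO (log2 change -1.56, SE 0.20, adjusted p = 4.4e-05). WT replicate 2 held the most Ms4a3, and also the most Elane, of the 6 samples. Cst7 was at 67.3, 85.0 and 63.9 CPM in WT and 38.6, 35.8 and 41.3 in Txnip-KO (-0.91, SE 0.11, adjusted p = 3.8e-05). Neither gene overlapped between the groups.

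Of the 4 regulators Cebpa, Cebpb and Cebpe fell, and the groups overlapped for Cebpb, Cebpe and Gfi1. Cebpa was at 86.2, 89.4 and 99.6 CPM in WT and 81.7, 58.9 and 71.8 in Txnip-KO (-0.37, SE 0.11, adjusted p = 0.013), with the groups apart by a narrow margin. Cebpb was at 44.4, 56.7 and 48.4 CPM in WT and 28.4, 28.2 and 46.5 in Txnip-KO (-0.56, SE 0.16, adjusted p = 0.011), where the third Txnip-KO sample lay inside the WT range. The call of Cebpa was lost without WT replicate 3 (adjusted p = 0.070) or Txnip-KO replicate 2 (0.082), and that of Cebpb without WT replicate 2 (0.075) or Txnip-KO replicate 2 (0.068). Cebpe was at 16.0, 28.0 and 11.8 CPM in WT and 4.55, 3.63 and 12 in Txnip-KO (-1.56, SE 0.35, adjusted p = 0.0022), again with Txnip-KO replicate 3 inside the WT range, and it missed the threshold by DESeq2's Wald test (adjusted p = 0.061) and under a stricter cell filter (0.051). Gfi1 was at 18.4, 15.8 and 20 CPM in WT and 24.6, 16.4 and 17.2 in Txnip-KO (0.11, SE 0.16, adjusted p = 0.61), and the groups overlapped.

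**Figure D2:**
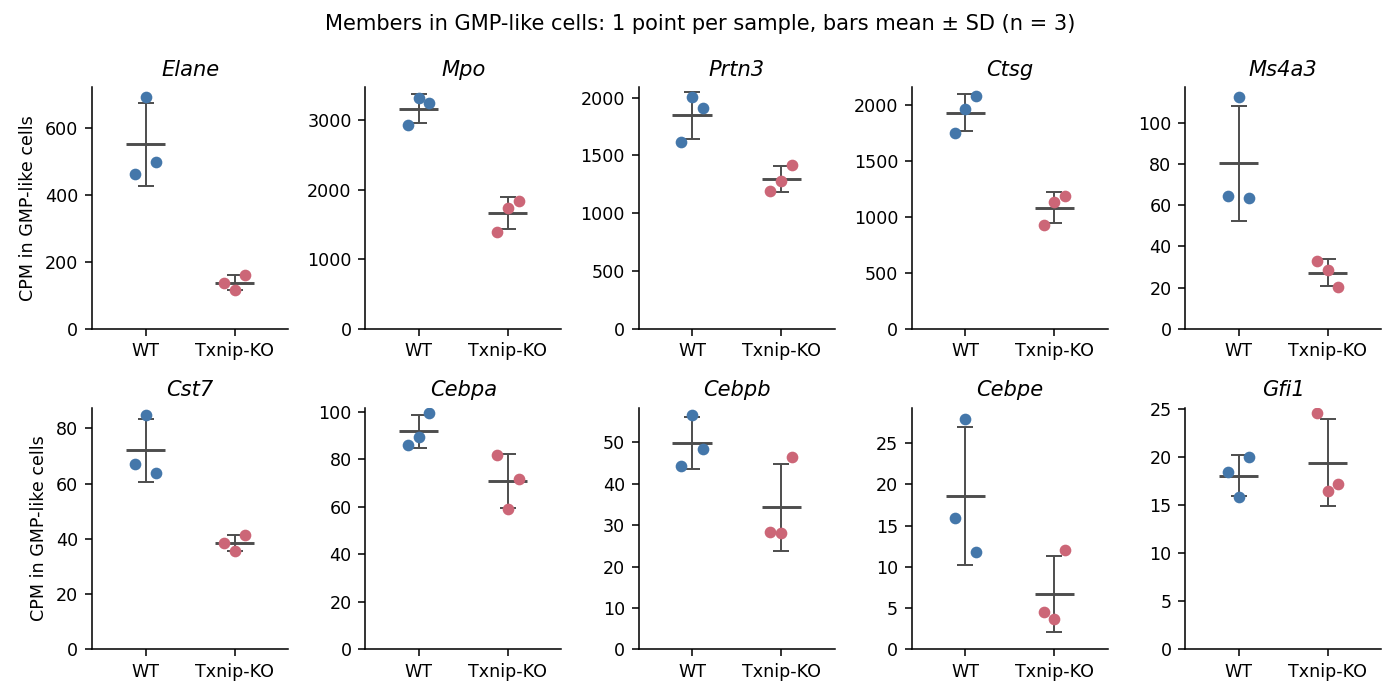
Level of each of the 10 genes in GMP-like cells (y axis: CPM, TMM-scaled; 1 point per sample; bars: mean ± SD, n = 3 per group). The Txnip-KO points of Elane sit between 116 and 160.5 CPM, below the WT points at 462 to 692 CPM, and the points of Cebpb, Cebpe and Gfi1 overlap between the groups.

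Other measures of the GMP-like cells differed between the groups too. Median UMIs per cell were 16998, 15688 and 15333 in WT and 11390, 9483 and 10561 in Txnip-KO, and median mitochondrial shares were 4.09%, 4.0% and 4.25% against 4.73%, 4.85% and 4.89%. The summed level of the 12 HSC markers, all detected, was 169 to 211 CPM in WT and 345 to 506 CPM in Txnip-KO. The sum of the 12 monocyte markers, all detected, was 398 to 455 CPM in WT and 211 to 320 in Txnip-KO. The 8 lymphoid-primed markers, all detected, summed to 926 to 947 CPM in WT and 1181 to 1233 in Txnip-KO. The erythroid list (12 of 12 detected) summed to 122 to 171 CPM in WT and 221 to 294 in Txnip-KO, and the 6 genes of dividing cells to 610 to 661 against 380 to 536. The GMP list itself was at 592 to 704 CPM in WT and 429 to 531 in Txnip-KO. The part of these differences in the fall of the granule genes was not tested. Thinning gives every cell the same depth but leaves the expected share of each gene in a cell unchanged. It therefore cannot test what part the lower UMIs per cell had. With each cell thinned to 1000 UMIs, Elane (-1.99), Mpo (-0.92), Ctsg (-0.83), Prtn3 (-0.44), Ms4a3 (-1.98) and Cst7 (-1.17) still fell, and Cebpa (-0.28, adjusted p = 0.38) and Cebpb (-0.50, adjusted p = 0.23) missed the threshold. Where GMPs were instead gated cell by cell on markers, 1 of the 10 genes passed, but that gate took 534 basophil or mast-like cells and 88 GMP-like cells. No share of all genes tested stands beside that count, and nothing is read from it.

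Finer clusters of the same cells divided the 10 genes. At clustering resolution 2 most GMP-like cells fell into sub-cluster 7 (1548 of its 1659 cells were GMP-like), led by Elane, Ly6c2 and F13a1, and into sub-cluster 30 (429 of 436), led by the proliferation genes Pclaf and Birc5 and by the lymphoid gene Dntt. In sub-cluster 7 the same 9 genes were lower in Txnip-KO, where 21.4% of all genes tested were lower. Elane there was at 943, 1241 and 812 CPM in WT and 205, 192 and 277 in Txnip-KO (-2.16, SE 0.13, adjusted p = 8.0e-11), with no overlap. Mpo (-1.13), Ctsg (-0.97), Prtn3 (-0.77), Ms4a3 (-1.99) and Cst7 (-1.04) fell with it, as did Cebpe (-1.99), Cebpb (-0.74) and Cebpa (-0.42), while Gfi1 changed by -0.42 (adjusted p = 0.077).

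In sub-cluster 30 the genes that passed were 3, each of them higher, where 5.22% of all genes tested were lower, 4.36% were higher and 9.57% changed in either direction. Prtn3 was at 499, 634 and 488 CPM in WT and 759.5, 769.7 and 798 in Txnip-KO (0.52, SE 0.09, adjusted p = 0.00051), with no overlap. Mpo was at 851, 808 and 711 CPM in WT and 875, 944 and 1086 in Txnip-KO (0.29, SE 0.09, adjusted p = 0.035). Elane was at 3.02, 11.2 and 5.59 CPM in WT and 20.2, 32.2 and 5.78 in Txnip-KO (1.56, SE 0.42, adjusted p = 0.016), with overlapping groups and only 6, 20 and 6 UMIs behind the WT values. Gfi1 changed by 0.86 (adjusted p = 0.054), Ctsg by 0.19 and Cst7 by -0.40 without passing, and Cebpe was not tested. The difference between the sub-clusters passed for 8 of the 10 genes (class by genotype term in edgeR with the sample as a block, where 8.52% of all genes tested differed). The change in sub-cluster 30 stood above that in sub-cluster 7 by 3.77 for Elane (SE 0.40, adjusted p = 6.8e-10), 2.76 for Ms4a3, 1.43 for Mpo, 1.30 for Prtn3 and 1.15 for Ctsg. It passed as well for Cebpe (3.05), Gfi1 (1.37) and Cst7 (0.67), and not for Cebpa (0.26, adjusted p = 0.46) or Cebpb (0.34, adjusted p = 0.34). These clusters were defined from the same cells, without the 10 genes, after the data had been seen.

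**Figure D3:**
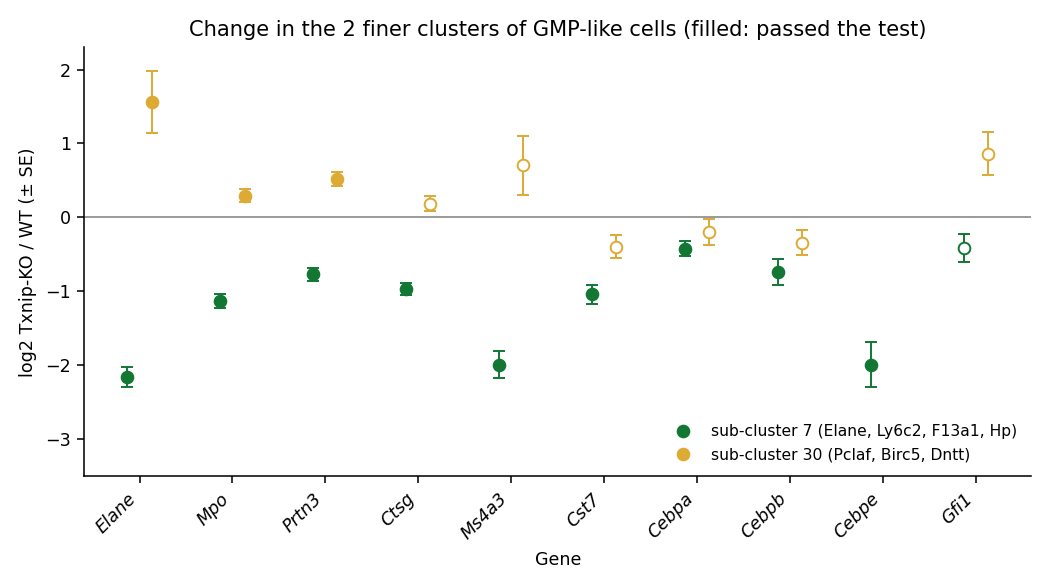
Change of the 10 genes (y axis: log2 Txnip-KO over WT; bars: SE of the edgeR fit) in the finer clusters 7 and 30 that hold most GMP-like cells. The values of cluster 7 lie below 0, down to -2.16 for Elane, and those of Elane, Prtn3 and Mpo in cluster 30 lie above 0.

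Counting cells instead of UMIs gave the same order for 3 of the 4 granule genes. With every GMP-like cell thinned to 1000 UMIs, Elane was seen in 15.8%, 23.2% and 18.4% of WT cells and in 6.50%, 7.09% and 9.13% of Txnip-KO cells. Mpo was seen in 74.0%, 76.3% and 72.7% of WT cells and 58.5%, 66.4% and 67.3% of Txnip-KO cells, and Ctsg in 61.8%, 68.6% and 67.8% against 47.3%, 50.9% and 53.5%. For these 3 genes the groups did not overlap (exact permutation test, two-sided, p = 0.1, the smallest that 3 samples against 3 allow). Prtn3 was seen in 66.9% ± 3.94 of WT and 66.8% ± 2.04 of Txnip-KO cells (SD, n = 3), and these overlapped (exact permutation test, two-sided, p = 1). The result for Prtn3 depended on the depth: thinned to 2000 UMIs it was seen in 76.3%, 81.4% and 83.3% of WT and in 83.8%, 86.6% and 87.9% of Txnip-KO cells, higher in Txnip-KO without overlap (exact permutation test, two-sided, p = 0.1), while Elane, Mpo and Ctsg stayed lower without overlap. That share goes against the lower CPM of Prtn3 in these cells, and no order is read from it. Unthinned, Elane was seen in 42.8% of WT and 21.0% of Txnip-KO GMP-like cells, and Ctsg in 89.2% and 79.8%.

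NK-like cells, which should lack these transcripts, gave the background. After thinning, Elane was seen in 0.318% of WT and 0.221% of Txnip-KO NK-like cells, Mpo in 1.8% and 1.51%, Prtn3 in 0.958% and 1.79%, and Ctsg in 0.819% and 1.17%. Their median depth was 4775, 4059 and 4531 UMIs per cell in WT and 3951, 3378 and 2932.5 in Txnip-KO. The share of thinned GMP-like cells with at least 5 UMIs of Prtn3 was 10.8%, 11.1% and 9.54% in WT and 2.24%, 4.93% and 6.24% in Txnip-KO. The groups did not overlap in the share with at least 5.

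Prtn3 parted from the other granule genes in several classes outside the GMP-like cells. It was higher in Txnip-KO in 8 of the 14 classes in which it was tested and lower in 3 (GMP-like cells, cluster 12 and cluster 9). The 8 include NK-like cells, taken above as the background, with 8.90 to 11.5 CPM of Prtn3 in WT. They also include plasmacytoid dendritic cell-like (6.44 to 15 CPM in WT) and innate lymphoid-like cells (13.1 to 19.7), at or near that level. Whether the rises in these classes go beyond a change in background was not tested. Elane was lower in 4 of 7 classes, Mpo in 7 of 14 and Ctsg in 7 of 14, and among these 3 genes the only higher call was Ctsg in innate lymphoid-like cells. In B lineage-like cells and cluster 22, where 14.4% and 5.16% of all genes tested changed, the smallest adjusted p among the 10 genes was 0.16 (Cebpb, -0.82) and 0.17 (Cst7, -0.44). The difference itself was tested by asking whether the change in a class differed from that in GMP-like cells (class by genotype term in edgeR, with the sample as a block). For Prtn3 it did so in 10 of 13 classes, for Mpo in 9 of 13, for Ctsg in 6 of 13 and for Elane in 5 of 6. Of all genes tested, those that differed in this way were 18.7% in basophil or mast-like, 8.67% in erythroid-like, 7.44% in lymphoid-primed progenitor-like, 5.68% in NK-like, 5.53% in megakaryocyte-like and 5.49% in HSC-like cells. They were 4.25% in plasmacytoid dendritic cell-like, 3.37% in innate lymphoid-like, 3.25% in B lineage-like and 3.04% in neutrophil-like cells. In clusters 9, 10, 12, 14 and 22 they were 11.2%, 2.60%, 1.39%, 4.22% and 0.967%.

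Scaling by total UMIs raised the share of calls that were higher in most classes: from 49.5% to 78.3% in NK-like, from 47.2% to 67.1% in HSC-like, from 47.9% to 66.2% in lymphoid-primed progenitor-like, from 48.9% to 61.0% in basophil or mast-like, from 48.3% to 59.2% in megakaryocyte-like, from 48.6% to 62.8% in plasmacytoid dendritic cell-like and from 56.9% to 75.2% in innate lymphoid-like cells. It did so from 46.5% to 70.6% in cluster 10, from 46.8% to 72.2% in cluster 12, from 47.1% to 60.7% in cluster 14 and from 45.6% to 59.4% in cluster 22, and lowered it from 60.0% to 24.4% in neutrophil-like cells. On that scale Prtn3 kept its direction and its calls in these classes, except that its fall in cluster 12 missed the threshold (-0.18, adjusted p = 0.15). Cst7 in HSC-like cells (adjusted p = 0.065) and Ctsg in cluster 14 (adjusted p = 0.11) missed it as well.

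In HSC-like cells 36.1% of all genes tested changed. Prtn3 was at 397, 498 and 447 CPM in WT and 620.3, 706 and 852 in Txnip-KO (0.70, SE 0.11, adjusted p = 0.00034). The groups did not overlap, and the change stood 1.21 above that in GMP-like cells. Mpo was at 257, 238 and 277 CPM in WT and 104, 187 and 226 in Txnip-KO (-0.58, adjusted p = 0.022), and Ctsg at 85.4, 109.6 and 137 against 31.0, 51.0 and 63.2 (-1.21, adjusted p = 0.00035). The UMIs of Prtn3 per UMI of Mpo were 1.54, 2.10 and 1.61 in WT and 5.94, 3.78 and 3.76 in Txnip-KO. Cells with a UMI of Prtn3, after thinning, made up 34.1% of WT and 51.9% of Txnip-KO HSC-like cells.

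The directions of Mpo and Ctsg in HSC-like cells rested on how the class was drawn. At clustering resolution 2, where the HSC-like class held 240, 224 and 232 WT and 614, 752 and 514 Txnip-KO cells, both were higher in Txnip-KO (0.88 for each, both past the test). With the 10 genes used in the clustering Ctsg changed by 0.04, and with cells gated 1 by 1 on markers Mpo changed by 0.31. Without WT replicate 1 or WT replicate 3 the fall of Mpo missed the threshold (adjusted p = 0.064 and 0.10). Prtn3 was higher under all 19 alternatives run for this class. Beside these values, the summed HSC markers were at 908 to 1011 CPM in WT and 1319 to 1531 in Txnip-KO, and the GMP list at 234 to 250 CPM and 245 to 299. Their part in the result was not tested.

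In lymphoid-primed progenitor-like cells, marked by Flt3 and Dntt, 39.6% of all genes tested changed. There Prtn3 was higher as well, while Mpo, Ctsg and Elane did not pass in either direction. Prtn3 rose from 174, 276 and 224 CPM in WT to 471, 429 and 476 in Txnip-KO (1.03, SE 0.13, adjusted p = 8.2e-05), without overlap and under all 18 alternatives run. Cells with a UMI of Prtn3, after thinning, made up 15.3% of WT and 31.4% of Txnip-KO cells. Mpo changed by -0.06 (adjusted p = 0.58) and Ctsg by 0.21 (adjusted p = 0.29). Elane was at 1.93 CPM ± 0.928 in WT and 5.29 ± 5.18 in Txnip-KO (1.38, adjusted p = 0.073) and did not pass.

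**Figure D4:**
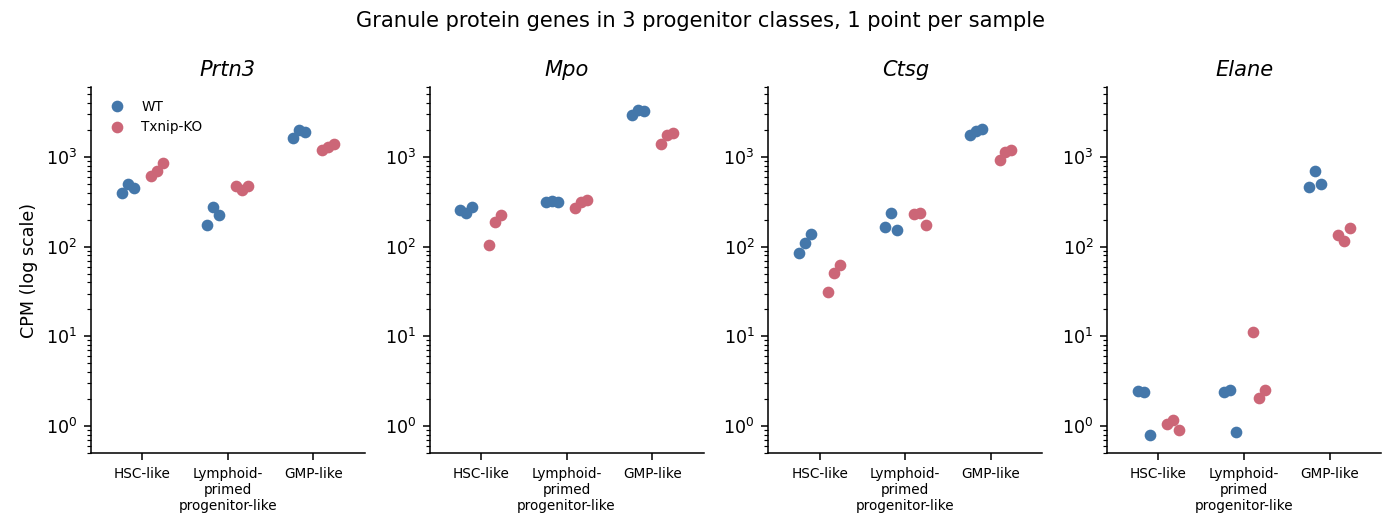
Levels of Prtn3, Mpo, Ctsg and Elane in 3 progenitor classes (y axis: CPM on a log scale; 1 point per sample; WT and Txnip-KO side by side). Prtn3 is higher in Txnip-KO in HSC-like and lymphoid-primed progenitor-like cells and lower in GMP-like cells, without overlap in any of the 3. Elane stays under 12 CPM in the HSC-like and lymphoid-primed progenitor-like cells.

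Classes that hold little Prtn3 showed higher levels as well. Megakaryocyte-like cells were at 78.5, 69.0 and 81.8 CPM in WT and 109.6, 152 and 238 in Txnip-KO (1.12, adjusted p = 0.00058, with 31.0% of all genes tested changed). Erythroid-like cells were at 31.6, 27.6 and 26.7 CPM in WT and 36.9, 47.2 and 76.0 in Txnip-KO (0.91, adjusted p = 0.0081, with 34.6% changed). Plasmacytoid dendritic cell-like cells were at 6.44, 13.1 and 15 CPM in WT and 17.7, 33.7 and 65.6 in Txnip-KO (1.74, adjusted p = 0.00083, with 28.0% changed). The third Txnip-KO sample was the highest in each of these 3 classes. Without doublet removal the change in plasmacytoid dendritic cell-like cells was 0.74 (adjusted p = 0.14), and with genes that differed between the groups left out of the clustering that in erythroid-like cells was 0.645 (adjusted p = 0.054). In NK-like cells Prtn3 was at 8.90, 10.1 and 11.5 CPM in WT and 13, 13.6 and 16.3 in Txnip-KO (0.50, adjusted p = 0.046, with 29.5% changed), and this call was lost under 15 of 19 alternatives, the fit without each of the 6 samples included (adjusted p from 0.053 to 0.18).

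In innate lymphoid-like cells the highest level of Prtn3 and most Elane UMIs were in Txnip-KO replicate 3. Prtn3 was at 13.1, 14.7 and 19.7 CPM in WT and 18.6, 31.4 and 135 in Txnip-KO (2.03, adjusted p = 0.029, with 3.15% of all genes tested changed). Elane UMIs in this class numbered 0, 1 and 2 in WT and 1, 0 and 54 in Txnip-KO. Without Txnip-KO replicate 3 the change of Prtn3 was 0.69 and did not pass. It missed the threshold as well without WT replicate 1, 2 or 3 (adjusted p = 0.15, 0.094 and 0.11). Ctsg changed by 2.52 (adjusted p = 0.0099), by 2.35 without WT replicate 1 (adjusted p = 0.093), by 0.19 at clustering resolution 0.5 (0.87) and by 0.07 with genes that differed between the groups left out of the clustering (0.95). Prtn3 changed by 0.79 (0.22) and 0.81 (0.15) under the same alternative clusterings.

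Basophil or mast-like cells had the most genes called after GMP-like cells, with 6 of the 10 genes lower and 1 higher, where 11.1% of all genes tested were lower, 10.6% higher and 21.8% changed in either direction. Ctsg was at 1462, 1724 and 1242 CPM in WT and 708, 528 and 509.8 in Txnip-KO (-1.34, SE 0.16, adjusted p = 0.00047). Mpo was at 585, 605 and 531 CPM in WT and 258, 179.5 and 293 in Txnip-KO (-1.23, adjusted p = 0.00086). Neither overlapped between the groups. Ms4a3 was at 214, 278 and 143 CPM in WT and 118, 41.3 and 60.5 in Txnip-KO (-1.50, adjusted p = 0.0076), and Cst7 changed by -0.71 (adjusted p = 0.0052). Prtn3 went the other way, from 55.1, 54.5 and 56.1 CPM in WT to 78.0, 123 and 189 in Txnip-KO (1.22, adjusted p = 0.0064). With cells gated 1 by 1 on markers (245, 318 and 212 WT and 98, 31 and 35 Txnip-KO cells), 5 of the 6 lower calls were lost: Ctsg changed by -0.09 (adjusted p = 0.71), Ms4a3 by -0.09 (0.79), Cebpa by -0.14 (0.60), Mpo by -0.34 (0.070) and Cst7 by -0.33 (0.32).

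Other marker lists moved with the basophil or mast-like class. Its own 12 markers, all detected, summed to 28435 to 37475 CPM in WT and 8509 to 17536 in Txnip-KO. The neutrophil list (12 of 12 detected) was at 830 to 849 CPM in WT and 244 to 669 in Txnip-KO, and the monocyte list (12 of 12) at 1121 to 1193 and 357 to 696. The HSC list (11 of 12 detected, Hoxb5 at 0) was at 93.4 to 108 CPM in WT and 162 to 226 in Txnip-KO. Their part in the changes of the 10 genes was not tested.

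Among the regulators Cebpb fell most in basophil or mast-like cells, from 181, 221 and 193 CPM in WT to 67.9, 60.2 and 49.5 in Txnip-KO (-1.74, SE 0.15, adjusted p = 0.00011). Cebpa was at 509, 525 and 470.2 CPM in WT and 367, 164 and 184 in Txnip-KO (-1.06, adjusted p = 0.010). Both were separated between the groups, and Cebpa missed the threshold without WT replicate 2 (adjusted p = 0.052). The 3 clusters of this class held different shares of it: cluster 6 made up 66.3% of the class in WT and 51.5% in Txnip-KO, cluster 17 11.1% and 39.2%, and cluster 18 22.6% and 9.30%. Fitted apart, Cebpb was lower in all 3 clusters (-0.56, -1.08 and -1.23) and Ctsg in clusters 6 and 17 (-1.07 and -0.89), whereas Cebpa missed the threshold in each (-0.15, -0.38 and -0.10). Apart, 7.67%, 5.83% and 12.2% of all genes tested changed in clusters 6, 17 and 18. Mpo passed as lower in clusters 17 and 18, Ms4a3 in cluster 17, and Prtn3 as higher in cluster 18 (1.84).

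Among the unnamed clusters, Elane, Mpo and Ctsg were lower in clusters 12 and 10, and Mpo and Ctsg in cluster 14. In cluster 12 (33.9% of all genes tested changed) Elane was at 175, 223 and 112 CPM in WT and 33.0, 56.9 and 25.8 in Txnip-KO (-2.12, SE 0.23, adjusted p = 1.1e-05), and Ms4a3 changed by -1.70, Ctsg by -0.78, Cst7 by -0.73, Mpo by -0.54 and Prtn3 by -0.34, all past the test. In cluster 10 (27.0% changed) Elane was at 86.2, 123 and 108 CPM in WT and 78.3, 42.2 and 40.6 in Txnip-KO (-1.05, adjusted p = 0.00020), with Ctsg at -0.67, Cst7 at -0.61 and Mpo at -0.51. In cluster 14, led by Ly6d, Irf8 and Siglech (32.0% changed), Mpo (-0.75) and Ctsg (-0.55) were lower. The 6 genes of dividing cells summed there to 473 to 499 CPM in WT and 103 to 210 in Txnip-KO, whose part was not tested. The groups did not overlap for Elane in clusters 12 and 10. With cells thinned to 1000 UMIs, the calls in cluster 10 of Elane (-0.95, adjusted p = 0.096), Ctsg (-0.36, 0.13) and Mpo (-0.12, 0.57) were lost. The same thinning ended those of Mpo (-0.21, 0.28), Cst7 (-0.27, 0.72) and Prtn3 (-0.16, 0.50) in cluster 12 and those of Mpo (-0.70, 0.14) and Ctsg (-0.46, 0.46) in cluster 14. Prtn3 in cluster 12 missed the threshold without WT replicate 2 (-0.23, adjusted p = 0.15) or Txnip-KO replicate 1 (adjusted p = 0.052). In cluster 14 both genes missed it without WT replicate 3 (Mpo -0.40, adjusted p = 0.068; Ctsg -0.10, adjusted p = 0.71), and Ctsg without Txnip-KO replicate 2 (adjusted p = 0.21).

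Cluster 9 had a steeper fall of Elane than GMP-like cells, in a class where 28.4% of all genes tested changed. Elane was at 57.5, 38.5 and 46.9 CPM in WT and 2.20, 6.63 and 1.91 in Txnip-KO (-3.95, SE 0.31, adjusted p = 1.6e-07), a change 2.0 lower than that in GMP-like cells by the test of the difference. Ctsg was at 128, 101 and 121 CPM in WT and 19.0, 25.7 and 27.7 in Txnip-KO (-2.30), and Mpo at 54.4, 47.0 and 41.6 against 8.06, 24.9 and 9.56 (-1.94). Prtn3 was lower by less (-0.57, adjusted p = 0.013). Cebpb was at 294, 239 and 324 CPM in WT and 156, 104 and 154 in Txnip-KO (-1.02, adjusted p = 4.5e-05). Cebpa went the other way, from 53.9, 53.9 and 63.8 CPM to 92.7, 67.1 and 77.4 (0.49, adjusted p = 0.011), and its groups did not overlap. The call of Cebpa was lost without WT replicate 2 or Txnip-KO replicate 1 (adjusted p = 0.071 and 0.080), and that of Prtn3 without WT replicate 1 or Txnip-KO replicate 2 (0.064 and 0.054). In this cluster the 6 genes of dividing cells summed to 985 to 1065 CPM in WT and 166 to 298 in Txnip-KO. The conventional dendritic list was at 13856 to 17561 CPM in WT and 15699 to 24992 in Txnip-KO. The monocyte list was at 11656 to 12377 and 10954 to 12528, and both of these lists overlapped between the groups. The part of these lists in the changes was not tested.

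Cst7 was lower in 9 of the 15 classes in which it was tested and higher in 0. Cst7 had the most lower calls among the 10 genes, but these were tested in unequal numbers of classes, from 2 (Cebpe) to 16 (Cebpb). In NK-like cells, where its inhibition of cathepsins bears on granzyme processing, Cst7 was at 179.8, 167 and 184 CPM in WT and 115, 122 and 133 in Txnip-KO (-0.52, SE 0.09, adjusted p = 0.00055). The clusters of the NK-like class took different shares of it in the groups: cluster 0 made up 83.9% of it in WT and 59.7% in Txnip-KO, cluster 11 8.32% and 21.0%, and cluster 13 7.0% and 19.2%. The part of this shift in the changes of Cst7, Prtn3 and Gfi1 in NK-like cells was not tested. In lymphoid-primed progenitor-like cells it was at 68.7, 74.6 and 72.3 CPM in WT and 45.1, 44.7 and 55.4 in Txnip-KO (-0.57, adjusted p = 0.00059). It also fell in erythroid-like (-0.49), megakaryocyte-like (-0.38) and HSC-like cells (-0.53), although at clustering resolution 2 its change in the last was 0.43 (adjusted p = 0.24). Its call in megakaryocyte-like cells was lost without WT replicate 2 (adjusted p = 0.069), and that in HSC-like cells without WT replicate 2 (-0.32, 0.21), WT replicate 3 (0.085), Txnip-KO replicate 1 (0.10) or Txnip-KO replicate 2 (0.069). Gfi1 passed in 1 of 9 classes, NK-like cells, with 14.1, 15.7 and 14.2 CPM in WT and 21.6, 18.9 and 20.9 in Txnip-KO (0.49, adjusted p = 0.018). That call was lost without WT replicate 1, WT replicate 3 or Txnip-KO replicate 1 (adjusted p = 0.076, 0.075 and 0.065).

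Neutrophil-like cells could be tested for Cebpb and Cebpe only, because the other genes were under the count filter there, and 6.08% of all genes tested changed. Cebpe was at 687, 399 and 705 CPM in WT and 449.5, 371 and 438 in Txnip-KO (-0.46, adjusted p = 0.26), and the groups overlapped. Cebpb was at 85.8, 90.6 and 106 CPM in WT and 314, 101 and 531 in Txnip-KO (1.91, adjusted p = 0.022). The WT values rested on 8, 10 and 8 UMIs, and the call was lost without WT replicate 1, 2 or 3 (adjusted p = 0.11, 0.11 and 0.081). Elane gave 1 UMI over all neutrophil-like cells, in Txnip-KO replicate 3.

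**Figure D5:**
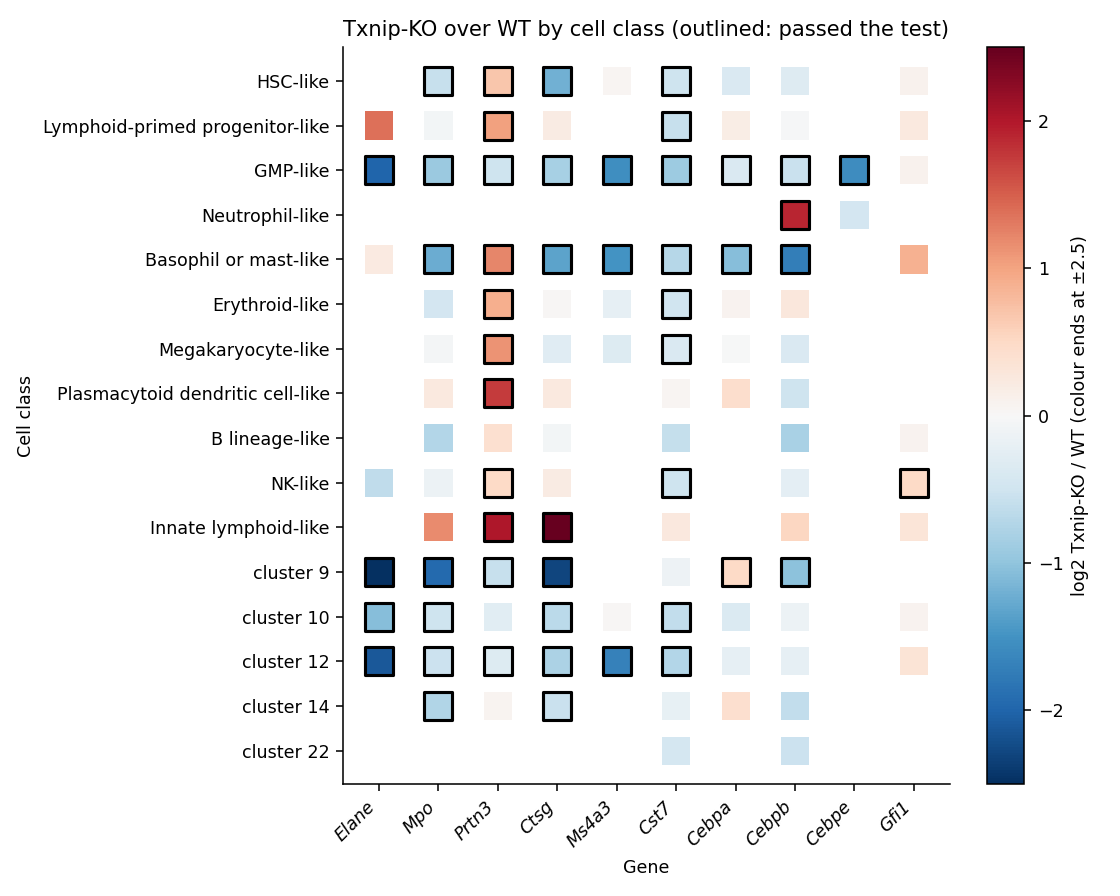
Change of the 10 genes in each of the 16 classes (colour: log2 Txnip-KO over WT from edgeR, ending at ±2.5; outlined squares passed the test; blank where the gene was under the count filter). The row of GMP-like cells is blue except for Gfi1, and the column of Prtn3 is mostly red. HSC-like Mpo and Ctsg are higher at clustering resolution 2, and Cebpa and Cebpb in GMP-like cells do not pass when scaled by total UMIs.

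Summed over all kept cells, 6 of the 10 genes were lower in Txnip-KO and 1 was higher, where 19.3% of all genes tested were lower, 21.8% higher and 41.1% changed in either direction. The groups did not overlap for 8 of the 10, against 55.5% of all genes tested. In such sums, fewer cells of a type and less RNA per cell cannot be told apart, and GMP-like cells made up 4.47% to 6.14% of kept cells in WT and 5.87% to 8.29% in Txnip-KO. Elane was at 67.2, 91.0 and 50.5 CPM in WT and 20.5, 17.7 and 19.2 in Txnip-KO (-1.87, SE 0.19, adjusted p = 0.00095). Ctsg (-0.86), Mpo (-0.77), Ms4a3 (-1.06), Cebpb (-0.73) and Cst7 (-0.54) were lower too. Prtn3 was at 361, 435 and 340.4 CPM in WT and 367, 414 and 407 in Txnip-KO, with overlapping groups and a change of 0.06 (adjusted p = 0.64).

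Of the regulators in the same sums, Gfi1 was the gene called higher, from 10.2, 9.6 and 9.40 CPM to 13.3, 10.9 and 11.3 (0.28, adjusted p = 0.0499). It lost the call under 10 alternatives, among them the fits without WT replicate 1, 2 or 3 or without Txnip-KO replicate 1 or 3 (adjusted p from 0.054 to 0.16). Cebpa changed by -0.55 (adjusted p = 0.052) and Cebpe by 0.20 (adjusted p = 0.80), and neither passed. Cebpa passed without Txnip-KO replicate 1 (-0.83, adjusted p = 0.0035), with DESeq2's size factors (0.040) or its Wald test (0.0048), without the filter on low counts (0.023) or doublet removal (0.044), under the stricter cell filter (0.015) and with thinning (-0.98, 0.023). Prtn3 passed as higher with thinning (0.40, adjusted p = 0.044), while Ms4a3 missed the threshold without WT replicate 2 (-0.77, adjusted p = 0.051). Scaling by total UMIs moved the median of all genes in these sums by 0.10 and the share of calls that were higher from 53.0% to 67.4%.

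Counts of other genes of the granule pathway in GMP-like cells are read against the shares of all genes tested there, 21.0% lower, 19.9% higher and 40.9% in either direction. Of 16 other primary granule and granule assembly genes, 12 were tested, and the 4 that passed were lower, with a median change of -0.08 against 0.02 over all genes tested. The 4 calls among 12 genes are a smaller share than 40.9%. Prss57, a granule serine protease, changed by -0.96 (adjusted p = 1.6e-05) and Lyz2, lysozyme, by -0.40. Of 16 secondary and tertiary granule genes 6 were tested, with 2 lower, Hp (haptoglobin, -1.13) and Cyba (a subunit of the oxidase, -0.61), and 1 higher, Lcn2 (1.46), which was at 1.15 CPM ± 1.04 in WT and 3.45 ± 2.25 in Txnip-KO.

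Of 16 protease inhibitors 9 were tested in GMP-like cells, of which 4 were lower and 3 higher, where 40.9% of all genes tested changed in either direction. Slpi, an inhibitor of elastase and cathepsin G, was at 114 CPM ± 14.3 in WT and 35.8 ± 22.5 in Txnip-KO (-1.69, SE 0.26, adjusted p = 0.00013). Serpinb1a, which also inhibits these proteases, changed by -0.66 (adjusted p = 0.00023). Serpina3g rose from 41.7 ± 4.57 to 99.5 ± 31.8 CPM (1.25, adjusted p = 6.5e-05). Among 12 lysosomal cysteine and aspartic proteases, of which 11 were tested, Ctso was higher (0.66) and Ctsz (-0.61) and Ctss (-0.92) were lower, and 1 further gene was called higher. These 4 calls among 11 genes lie near the same 40.9%.

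Of 24 other regulators of granulocyte and monocyte fate, 19 were tested in GMP-like cells, with 4 higher and 4 lower, a share near the 40.9% of all genes tested. Irf8, which directs monocyte and dendritic cell fate, was at 250.2 CPM ± 15.4 in WT and 145 ± 22.1 in Txnip-KO (-0.79, adjusted p = 4.6e-05). Zeb2 (0.50) and Runx1 (0.49) were higher. Over all kept cells 3 of the 16 secondary and tertiary granule genes were higher and 1, Cyba (-0.50), was lower, a smaller share than the 41.1% of all genes tested. Among the 3, Chil3 was at 10.6 CPM ± 1.42 in WT and 80.9 ± 91.9 in Txnip-KO and Mmp8 at 4.23 ± 0.396 and 28.2 ± 33.9, beside the 274 neutrophil-like cells of Txnip-KO replicate 1.

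The likeness of patterns was measured as Pearson's r of log2(CPM + 1) means over the 16 WT classes, among 10593 genes of at least 10 CPM in 1 class. These points share libraries and depth, so the values are descriptions. Closest to Mpo were Ctsg (0.953), Slc4a8 (0.923) and Hsd17b1 (0.885), and closest to Ctsg were Mpo, Hsd17b1 (0.920) and Ccl9 (0.898). F13a1 (0.80), Ctsg (0.793) and Prtn3 (0.793) were closest to Elane, and Gapdh (0.927), Tfec (0.868) and Mpo (0.860) to Prtn3. Siglecf (0.868), Rtn4r and Sympk were closest to Ms4a3, Klhdc2 (0.918), Zfp961 and Gm17018 to Cst7, and P4hb (0.885), Ccl9 and Mapkapk3 to Cebpa. Vps13c (0.897), Lemd2 and Myo1g were closest to Cebpb, Cldn15 (0.977), Scnn1a and Mrgpra2b to Cebpe, and Elmo1 (0.889), Tnfrsf26 and Slc28a2 to Gfi1.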

How the data were processed

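Single-cell RNA sequencing libraries of 3 WT and 3 Txnip-KO bone marrow samples, grouped by their titles, were used. The authors deposited UMI counts per gene and barcode, not normalized, and the submitters' processing notes list Cell Ranger 6.1.1, CASAVA 1.8 and Seurat 2.3.4. The sources used here give neither the build nor the gene models counted on. Positions are from GENCODE M21 (GRCm38), which holds 31107 of the 31253 identifiers.

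Barcodes with at least 500 genes and 1000 UMIs and at most 10% mitochondrial UMIs were kept (44399), and the 2886 with the highest Scrublet scores (6.50%, set at 0.8% per 1000 barcodes) were removed as doublets, where Scrublet's own threshold marked 1394. Kept cells were scaled to 10000 and logged, and clustered with the Leiden method in scanpy 1.11.5 (2000 variable genes without the 10 genes and Txnip, 30 components, 15 neighbours, resolution 1). A cluster was named where at least 3 markers and 25% of a list reached a log2 fold of 1 against the remaining cells, with 10 CPM added, and led the next list by 10 percentage points.

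UMIs were summed per sample and class and tested with edgeR 4.0.16 in R 4.3.3 (filterByExpr, TMM, quasi-likelihood test, Benjamini-Hochberg adjustment over all genes tested, threshold 0.05). A change is the log2 of Txnip-KO over WT. Differences between classes were tested as the class by genotype term with the sample as a block. The edgeR test of Txnip-KO against WT was also run on simulated counts with few changed genes and the same spread for every gene. These settings differ from the data, and nothing is read from that run. CPM are computed from the deposited counts. Precision is set by the UMIs behind each sum and by 3 samples per group.

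The 10 genes and the pathway lists were chosen with earlier results of these data known. They were named in every class with at least 20 cells in each sample, together with the 3 genes of smallest p in each pathway list and the 3 genes of most like WT pattern per member. Alternatives were DESeq2 1.42.0 (size factors and Wald test), scaling by total UMIs, other filters, no doublet removal, thinning, equal cell numbers, other clusterings, a marker gate, a replicate block and leaving out each sample. Same-numbered WT and Txnip-KO samples deviated together only weakly (r = 0.104, 0.0994 and 0.0640), so their numbers were not taken as pairs.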

Additional observations from a re-analysis of the deposited data

Results flagged for a closer look

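The change in Txnip-KO differed between GMP-like cells and another class in 50 cases by the class by genotype term (edgeR, adjusted over all genes tested), where 0.967% to 18.7% of all genes differed, depending on the class. Each value below is the log2 change in the class minus that in GMP-like cells, so a positive value means a smaller fall or a rise. All of them share the GMP-like cells as reference and are not independent of each other. The limits given above for single classes, such as Prtn3 and Ctsg in innate lymphoid-like cells, hold here too.

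For Prtn3 the 10 differences were all positive: 2.48 in innate lymphoid-like, 2.22 in plasmacytoid dendritic cell-like, 1.61 in basophil or mast-like, 1.59 in megakaryocyte-like, 1.58 in lymphoid-primed progenitor-like, 1.40 in erythroid-like, 1.21 in HSC-like and 0.98 in NK-like cells, 0.55 in cluster 14 and 0.23 in cluster 10. For Mpo the differences were 2.04 in innate lymphoid-like, 1.15 in plasmacytoid dendritic cell-like, 0.90 in lymphoid-primed progenitor-like, 0.88 in megakaryocyte-like, 0.76 in NK-like and 0.32 in HSC-like cells, 0.42 in cluster 10, 0.36 in cluster 12 and -1.02 in cluster 9.

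For Elane they were 3.35 in lymphoid-primed progenitor-like, 2.13 in basophil or mast-like and 1.30 in NK-like cells, 0.96 in cluster 10 and -2.0 in cluster 9. For Ctsg they were 3.32 in innate lymphoid-like, 1.08 in lymphoid-primed progenitor-like and 1.02 in NK-like cells, and -0.36 in HSC-like cells, -0.57 in basophil or mast-like cells and -1.46 in cluster 9. For Ms4a3 they were 1.6 in HSC-like, 1.38 in erythroid-like and 1.21 in megakaryocyte-like cells and 1.61 in cluster 10.

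For Cst7 they were 0.54 in megakaryocyte-like, 0.44 in erythroid-like and 0.37 in lymphoid-primed progenitor-like cells, 0.75 in cluster 9 and 0.69 in cluster 14. For Cebpa they were 0.80 in plasmacytoid dendritic cell-like and 0.59 in lymphoid-primed progenitor-like cells, 0.83 in cluster 14, 0.82 in cluster 9 and -0.82 in basophil or mast-like cells. For Cebpb they were 2.74 in neutrophil-like, 0.98 in innate lymphoid-like, 0.80 in erythroid-like and 0.54 in lymphoid-primed progenitor-like cells and -1.24 in basophil or mast-like cells. For Cebpe the difference was 1.40 in neutrophil-like cells. Gfi1, compared in 8 classes, had its smallest adjusted p in basophil or mast-like cells (0.67, adjusted p = 0.12).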

How the results depend on the processing

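Of 1039 values of 62 gene and class results recomputed under the alternatives, 882 kept their direction and their side of the threshold, 126 lost the call, 9 gained one and 22 changed sign. Leaving out each sample in turn gave 5 to 7 genes called in all kept cells (7 in the full fit), 7 to 9 in GMP-like cells (9), 18 to 27 calls in the other named classes (24), 37 to 52 differences from GMP-like cells (50) and 6 to 7 separated shares of cells (6). With the replicate number as a block the counts were 8, 9 and 28. The block added the calls of Cebpa in all kept cells (adjusted p = 0.037), Cebpa (0.017) and Cebpb (0.017) in HSC-like cells, Elane in lymphoid-primed progenitor-like cells (0.034), Ms4a3 in megakaryocyte-like cells (0.044) and Prtn3 in cluster 10 (0.018), and ended no call of the 10 genes. The numbers pair nothing by label, although each sample correlated best with its own number. The marker gate gave 1 gene in GMP-like cells and 13 calls in the other named classes, and sub-cluster 30 gave 3. Without a filter on low counts 32 calls were made in the other named classes, and with thinning 16. No cluster was named GMP-like at resolution 0.5 or 2. Shares of all genes are not set beside the counts under these alternatives, nor beside those of separated shares of cells. The counts thus show how far the calls moved and no more.

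Signs changed for Prtn3 in all kept cells (-0.012 without WT replicate 3, -0.012 to 0.17 over the samples left out, -0.018 with equal cell numbers per class) and for Cebpe there (-0.051 with the block, -0.019 without WT replicate 3, -0.66 without Txnip-KO replicate 1, -0.66 to 0.63 over the samples left out, -0.16 without doublet removal, -0.84 with equal cell numbers per class). In GMP-like cells Gfi1 was at -0.10 without Txnip-KO replicate 1 (-0.10 to 0.23 over the samples left out), -0.22 with called genes left out of clustering, -0.10 in the finer clusters together and -0.42 in sub-cluster 7, and Cebpb at 0.060 in the marker gate. Sub-cluster 30 gave 0.52 for Prtn3, 1.56 for Elane, 0.19 for Ctsg, 0.29 for Mpo and 0.71 for Ms4a3. In HSC-like cells resolution 2 gave 0.88 for Mpo, 0.88 for Ctsg and 0.43 for Cst7, clustering with the 10 genes 0.036 for Ctsg, and the gate 0.31 for Mpo. The cause of these changes was not tested. Elane was under the count filter in 9 of the 16 classes and Cebpe in 14, so that no change of theirs could be seen there at this depth.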

Other observations

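Elane in cluster 14, where it was under the count filter, was at 1.69 and 2.14 CPM in WT replicates 1 and 2 and at 30.9 CPM in WT replicate 3. The fall of Mpo and Ctsg in the same cluster was not called without that sample.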
